A study of Homo sapiens with 9 samples.

Results

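The genes described here are the histone cluster genes of CAL-27 cells, as their polyadenylated transcripts appear in poly(A)-selected RNA. They were all rows whose gene name begins with HIST1H, HIST2H, HIST3H or HIST4H, after rows with a pseudogene ending were left out. The rule took 66 of 33216 genes, from 74 rows with such a name, of which 8 had a pseudogene ending. GENCODE 29 annotates 63 of the 66 as protein-coding and HIST2H2BD and HIST2H2BA as transcribed pseudogenes despite their names. By class they were 13 H2A, 19 H2B, 13 H3 and 15 H4 genes, the 4 core histones, and also 6 genes of the linker histone H1. By cluster, 48 belonged to HIST1 on chromosome 6, 14 to HIST2 and 3 to HIST3 on chromosome 1, and 1 to HIST4 on chromosome 12.

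CAL-27 is an established line of human tongue squamous cell carcinoma. The cells were transfected for 48 h with siRNA against LEF1 (siLEF1), with siRNA against KDM4A (siKDM4A) or as Control, with 3 libraries in each group, and the agent given to the Control cells was not stated in the labels. LEF1 is a transcription factor at the end of Wnt signalling and KDM4A is a demethylase of histone H3. The comparisons ask how gene expression differed after transient knockdown of either gene, in this line only. Protein was not measured in these libraries. The labels do not name the siRNA sequences used, so effects of a sequence and of its target cannot be told apart. The study's methods call the 3 samples of a group independent, but the labels name no separate cultures, so the p-values measure only the spread between these samples.

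LEF1 measured 1.19, 0.997 and 1.27 FPKM in the Control libraries, 0.270, 0.246 and 0.230 in siLEF1 and 0.898, 0.937 and 0.806 in siKDM4A. KDM4A measured 16.5, 16.5 and 16.6 FPKM in Control, 14.3, 14.0 and 13.8 in siLEF1 and 2.78, 2.76 and 2.78 in siKDM4A. Each targeted gene was lowest in the libraries labelled for it, without overlap. FPKM counts fragments per kilobase of gene model, scaled to the size of the library. The values corresponded to 15263188 to 17126666 reads on genes per library, and 3 reads on a model of 1 kb equalled 0.175 to 0.197 FPKM.

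Histone genes of these clusters are switched on when DNA is copied, so that new chromatin can be packed. Most of their messenger RNA has no poly(A) tail. It ends just behind a short stem-loop that SLBP binds and the U7 snRNP cleaves beside. A smaller share of transcripts runs past the stem-loop to an ordinary poly(A) signal and gains a tail, which is known from differentiated and non-dividing cells. Poly(A) selection keeps this tailed form, so the values below do not measure the main histone mRNA pool.

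In the GENCODE 29 transcripts (GRCh38), 33 of the 66 genes had a transcript holding the histone stem-loop. In 24 of them a transcript ran on for at least 100 bases, and 17 of these 24 had a poly(A) signal (AATAAA, with ATTAAA accepted in its place) within the last 40 bases. The 4 pairs of sites below show the arrangement in genes that the results turn on. Capitals mark the stem-loop or the poly(A) signal.
HIST1H2AC stem-loop: ccaaaGGCTCTTTTCAGAGCCcccctaccg
HIST1H2AC poly(A) signal: tgaggtAATAAAaggtaatgcaaagggaga
HIST2H2BE stem-loop: ccaaaGGCTCTTTTCAGAGCCacccaccta
HIST2H2BE poly(A) signal: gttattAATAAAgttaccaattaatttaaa
HIST1H2AG stem-loop: ccaacGGCTCTTTTCAGGGCCacccacgtc
HIST1H2AG poly(A) signal: attcatAATAAAgtgaaatgttcaagttc
HIST1H3G stem-loop: aaaaaGGCTCTTTTAAGAGCCgcctacttt
HIST1H3G poly(A) signal: tagtttAATAAAacctatgttcctctca
The stem-loops lie at chr6:26124664-26124693 (plus strand), chr1:149886179-149886208 (minus strand), chr6:27133510-27133539 (plus strand) and chr6:26270914-26270943 (minus strand), in the order printed. The signals lie at chr6:26139082-26139111 (plus strand), chr1:149884459-149884488 (minus strand), chr6:27135263-27135291 (plus strand) and chr6:26269405-26269432 (minus strand). The transcript continued for 1128 bases past the stem-loop in HIST1H2AC, 1729 in HIST2H2BE, 1761 in HIST1H2AG and 1518 in HIST1H3G.

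The gene models set which reads could be counted. Of the 66 models, 26 held the coding part only, and the 2 most abundant genes, HIST1H2BK with 381 bases and HIST1H1C with 642 bases, were among them. Reads in a downstream extension of these genes fell outside the model. HIST2H2BC was not in GENCODE 29. The shortest length that gave whole reads for HIST2H2BD was 492 bases, where its exons span 3612.

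RefSeq promoters (GRCh38.p14, 250 bases before to 50 bases after the start) were matched for 53 of the 66 genes. Those of the 2 most abundant genes and of the 2 genes with the lowest fitted change in siKDM4A are printed. The latter 2, HIST1H3A and HIST1H2BL, averaged fewer than 10 reads, so their fitted changes carry little weight. Capitals mark the octamer ATTTGCAT known from H2B promoters, the CCAAT box (those letters), the TATA box spelled TATAAA, and the core of the LEF1/TCF motif spelled CTTTGA. Both strands were searched, and none of the motifs contains another.
HIST1H2BK promoter: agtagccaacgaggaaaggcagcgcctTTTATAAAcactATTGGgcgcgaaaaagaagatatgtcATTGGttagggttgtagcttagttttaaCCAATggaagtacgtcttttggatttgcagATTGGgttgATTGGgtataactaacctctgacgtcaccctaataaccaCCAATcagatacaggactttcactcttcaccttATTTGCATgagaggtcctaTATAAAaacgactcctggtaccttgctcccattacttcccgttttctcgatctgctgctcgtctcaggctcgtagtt
HIST1H1C promoter: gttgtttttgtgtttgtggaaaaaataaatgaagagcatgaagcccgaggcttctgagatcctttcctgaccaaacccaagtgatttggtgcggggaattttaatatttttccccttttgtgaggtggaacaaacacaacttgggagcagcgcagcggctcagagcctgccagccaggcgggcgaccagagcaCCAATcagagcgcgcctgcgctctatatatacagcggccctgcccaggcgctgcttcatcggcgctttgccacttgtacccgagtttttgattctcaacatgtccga
HIST1H3A promoter: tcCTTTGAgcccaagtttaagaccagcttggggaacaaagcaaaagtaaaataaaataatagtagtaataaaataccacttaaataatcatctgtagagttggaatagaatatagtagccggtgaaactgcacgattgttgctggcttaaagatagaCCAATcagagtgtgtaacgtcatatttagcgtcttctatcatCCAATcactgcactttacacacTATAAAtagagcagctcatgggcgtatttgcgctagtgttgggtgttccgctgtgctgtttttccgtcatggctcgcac
HIST1H2BL promoter: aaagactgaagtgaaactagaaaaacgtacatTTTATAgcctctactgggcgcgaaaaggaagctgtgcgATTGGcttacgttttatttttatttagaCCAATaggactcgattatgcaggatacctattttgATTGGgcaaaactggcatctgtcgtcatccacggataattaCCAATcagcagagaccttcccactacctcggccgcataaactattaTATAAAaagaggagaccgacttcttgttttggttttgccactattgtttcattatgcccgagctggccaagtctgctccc
They lie at chr6:27146809-27147108 (minus strand), chr6:26056421-26056720 (minus strand), chr6:26020201-26020500 (plus strand) and chr6:27807880-27808179 (minus strand). The octamer was present in 15 of the 53 promoters (28.3%) and in 1.80% of all 27305 promoters. It was found in 8 of 12 H2A promoters, in 7 of 11 H2B promoters and in none of the 6 H1, 11 H3 and 13 H4 promoters matched. CCAAT was present in 81.1% of the members against 35.7% of all promoters, and TATAAA in 67.9% against 12%. CTTTGA was present in 5 of 53 (9.43%) against 13.1% of all promoters. Of the 19 genes raised in siLEF1, 16 had a matched promoter. Of these, 6 held the octamer, 15 the CCAAT box, 11 the TATA box and 0 the letters CTTTGA. Only this spelling of the LEF1/TCF core was searched, so other spellings were not counted. Of the 17 genes lowered in siKDM4A, 12 had a matched promoter, with 3, 9, 5 and 1 in the same order. A match describes letters in the window, and no binding was measured.

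Most members were low. The mean over the 9 libraries was at least 1 FPKM for 26 of them and below 1 FPKM for 40, and 28 had at most 10 reads in each library. HIST1H2BK led in every group, with a mean of 121.8 FPKM in Control, 357.0 in siLEF1 and 106.7 in siKDM4A. HIST1H1C came next with 44.0, 85.2 and 22.6 FPKM, followed by HIST1H2AC with 23.5, 38.3 and 17.2 FPKM. The order of these 3 genes was the same in all groups, and their libraries did not overlap between genes.

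The summed FPKM of the 66 genes was 291.7, 285.1 and 300.8 in the Control libraries, 661.4, 644.9 and 691.0 in siLEF1 and 229.3, 210.8 and 219.8 in siKDM4A. The groups did not overlap: siLEF1 was highest, siKDM4A lowest. The sum was thus 2.28 times the Control mean in siLEF1 and 0.752 times in siKDM4A. The share of HIST1H2BK in the sum lay between 41.3 and 41.8% among Control libraries, between 52.8 and 54.4% among siLEF1 libraries and between 46.7 and 50.3% among siKDM4A libraries. Without it the sum was 170.7 ± 5.48 FPKM (SD, n = 3) in Control, 308.8 ± 16.2 in siLEF1 and 113.3 ± 7.81 in siKDM4A. In these bulk samples, fewer cells of a kind and less RNA per cell cannot be told apart.

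H2B genes gave the largest class sum, 168.1 ± 3.40 FPKM (SD, n = 3) in Control, 455.1 ± 14.5 in siLEF1 and 143.7 ± 5.26 in siKDM4A. The H1 sum was 45.6 ± 0.864, 88.1 ± 8.22 and 23.5 ± 1.27 FPKM in the same order. The H2A sum was 45.5 ± 2.82, 73.3 ± 2.99 and 33.4 ± 1.89 FPKM. H3 and H4 were lower, with 17.7 ± 2.69, 24 ± 2.41 and 8.94 ± 0.974 FPKM for H3 and 15.5 ± 1.13, 25.2 ± 1.99 and 10.5 ± 0.900 FPKM for H4. In every class the 3 groups stood in the same order without overlap. The sums lean on abundant members, with a Control mean of 44.0 FPKM for HIST1H1C within H1 and 121.8 FPKM for HIST1H2BK within H2B. Single members did not all follow. Of 11 H3 genes tested in siLEF1, 5 lay above Control and 6 below, with a median log2 fold change of -0.78. The 6 below all averaged below 1 FPKM over the 9 libraries and 0 passed as lowered, so this median rests on few reads. The HIST2 sum differed in pattern, with 21.1 ± 0.928 FPKM in Control, 21.9 ± 0.548 in siLEF1 and 11.2 ± 0.870 in siKDM4A, and there Control and siLEF1 overlapped.

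**Figure D1:**
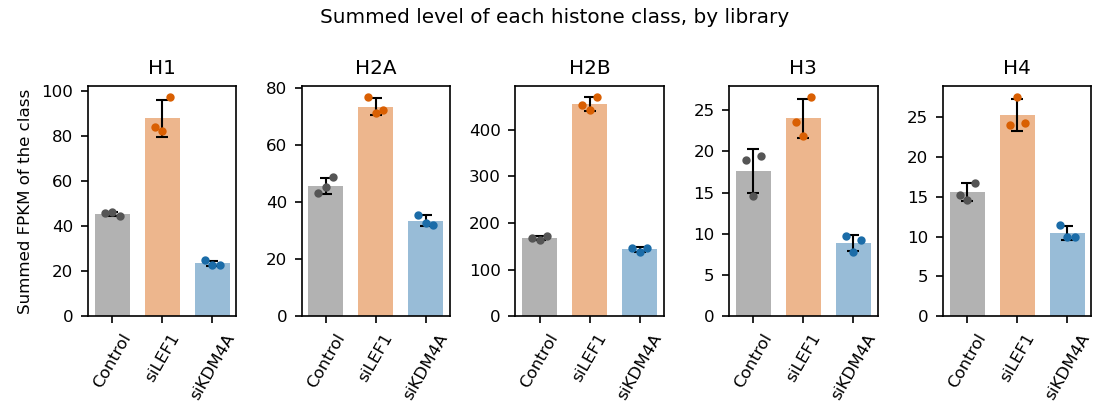
Bars show the mean summed FPKM of each histone class in Control, siLEF1 and siKDM4A, points the 3 libraries and error bars the SD. The axes differ between classes, and in each class siLEF1 is highest and siKDM4A lowest, from 455.1 FPKM for H2B in siLEF1 down to 8.94 FPKM for H3 in siKDM4A.

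After LEF1 knockdown, 19 histone genes were raised and 0 lowered among the 56 that could be tested. Of the 19, 6 had models without a stem-loop and 1 a model that ends near it. Reads in a coding part do not tell tailed from untailed transcripts. Leaving out 1 library at a time gave 12 to 16 raised, the lowest without siLEF1 replicate 3. A gene passed when limma gave an adjusted p below 0.05, over all genes tested, and a change above 1.5-fold on FPKM + 0.1. Over all 21831 genes tested, 6.31% were raised and 5.31% lowered. The median log2 fold change was 0.35 over the members and -0.01 over all genes. Of the 56 members, 37 were above 0 and 19 below. Among the 30 of them averaging below 1 FPKM, 15 were above 0 and 15 below. For the lowered direction, limma gave 2 members at an unadjusted p below 0.05, HIST1H3C and HIST1H4C, and limma voom on recovered reads called 1, HIST1H4K. All 19 raised genes were in HIST1, where 42 were tested, while 0 of 10 tested HIST2 genes passed in either direction. Whether HIST1 and HIST2 differ was not tested.

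Of the 19, 13 had a mean of at least 50 reads over the 6 libraries, 4 had 10 to 50 and 2, HIST1H2BO and HIST1H2AB, fewer than 10. On simulated counts with 200 of 21153 genes changed, most calls below 50 reads were wrong. In the data 2538 genes were called. The false share depends on how many genes change, so the simulated one gives no rate for these data. Calls on these few reads are still given little weight. The split at 50 reads was chosen after the simulation. Voom raised 16 of the 19, the others being HIST1H2BO, HIST1H1E and HIST1H2AB. Over the alternatives that tested them, the calls of HIST1H2BG (10 of 17), HIST1H2BE (9 of 16), HIST1H2BO (9 of 16), HIST1H1E (8 of 17) and HIST1H2AB (8 of 14) were lost most often.

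HIST1H2BK, an H2B gene at chr6:27146418-27146798 on the minus strand, measured 121.9, 119.3 and 124.2 FPKM in Control and 355.1, 351.0 and 364.9 in siLEF1. The groups were far apart and the libraries of each lay close together. The log2 fold change was 1.55 ± 0.03 (SE, limma adjusted p = 9.35e-07), a 2.93-fold rise. It rested on 706 to 723 reads per Control library and 2130 to 2368 per siLEF1 library.

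HIST1H2BJ, a neighbouring H2B gene with a spliced model at chr6:27125897-27132750, had the largest rise among members with at least 10 reads. Its FPKM was 7.10, 5.63 and 6.07 in Control and 28.0, 25.2 and 28.7 in siLEF1, without overlap. The log2 fold change was 2.11 ± 0.09 (SE, limma adjusted p = 1.42e-05). HIST1H2BD, which has 1 spliced transcript and 1 that ends 39 bases past the stem-loop, went from 8.70, 7.98 and 9.93 FPKM to 30.0, 26.8 and 33.2, a log2 fold change of 1.75 ± 0.10 (SE).

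The other raised H2B genes were HIST1H2BC, HIST1H2BG, HIST1H2BO, HIST1H2BN and HIST1H2BE. HIST1H2BC measured 8.01, 6.72 and 7.62 FPKM in Control and 13.0, 12 and 14.1 in siLEF1, and its log2 fold change was 0.80 ± 0.08 (SE). The remaining 4 had log2 fold changes of 0.62 to 1.03. HIST2H2BE, the most abundant H2B gene outside HIST1, did not pass, at 9.72, 10.5 and 9.76 FPKM against 10.5, 11.4 and 11.5 (limma adjusted p = 0.0657).

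Among H2A genes, HIST1H2AC, HIST1H2AG and HIST1H2AI rose. HIST1H2AE, with means of 1.36 FPKM in Control and 2.93 in siLEF1, had a log2 fold change of 1.22 but did not pass. It passed in 5 of 17 alternatives, voom among them. HIST1H2AC measured 22.7, 22.9 and 24.9 FPKM in Control and 38.6, 37.5 and 38.7 in siLEF1, a log2 fold change of 0.70 ± 0.04 (SE). HIST1H2AI measured 2.68, 2.82 and 2.21 FPKM against 8.65, 7.24 and 7.82, a log2 fold change of 1.59 ± 0.11 (SE), and its model ends 39 bases past the stem-loop. HIST1H2AB was listed at 0 in each Control library and had 4, 1 and 1 reads in siLEF1, too few for a fold. It passed the filter on low values through siLEF1 alone, so its calls, counted in the 19 here and in the comparison of the knockdowns, are no evidence of a rise.

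The linker histone genes HIST1H1C and HIST1H1E, which encode H1 proteins that bind the DNA between nucleosomes, rose. HIST1H1C measured 44.2, 44.8 and 42.9 FPKM in Control and 80.9, 79.9 and 94.6 in siLEF1. The third siLEF1 library was higher than the others, and all 3 were above Control. The log2 fold change was 0.95 ± 0.07 (SE, limma adjusted p = 8.86e-05).

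Of the H3 genes HIST1H3G, HIST1H3H and HIST1H3B rose, by log2 fold changes of 0.65 ± 0.09, 0.76 ± 0.16 and 1.38 ± 0.34 (SE). HIST1H3B had only 5 to 13 reads per Control library. Of the H4 genes HIST1H4I and HIST1H4H rose. HIST1H4I went from 6.01, 5.97 and 6.63 FPKM to 14.9, 14.6 and 14.0, a log2 fold change of 1.21 ± 0.05 (SE), while HIST1H4K spread from 0 to 3.02 FPKM among the siLEF1 libraries alone.

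**Figure D2:**
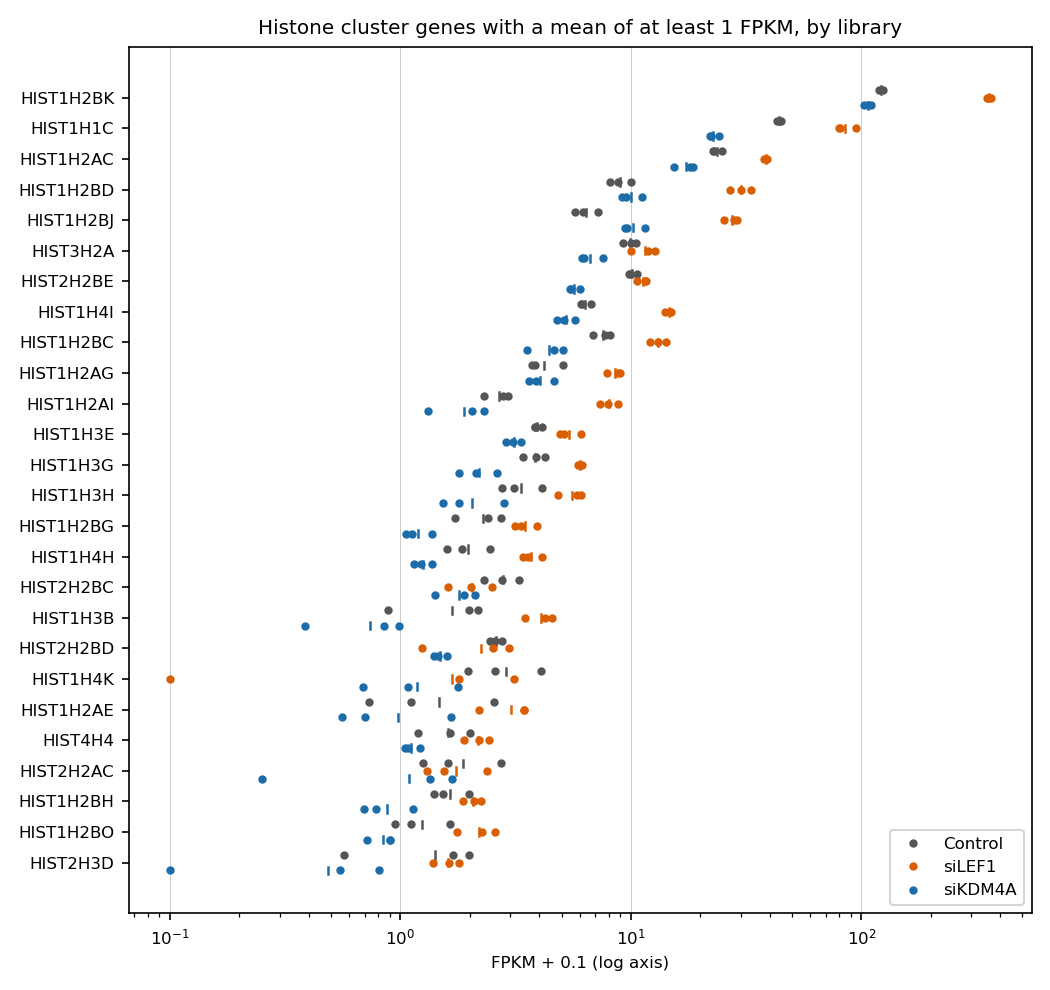
The FPKM + 0.1 on a log axis of the 26 members with a mean of at least 1 FPKM is drawn, with 1 point per library and a short bar at each group mean. The siLEF1 points of HIST1H2BK lie between 351.0 and 364.9 FPKM, to the right of all Control and siKDM4A points, while those of HIST2H2BE lie beside Control.

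After KDM4A knockdown the histone genes mostly lay below Control: 17 passed as lowered and 1, HIST1H2BJ, as raised, of 54 tested. Leaving out 1 library at a time gave 11 to 15 lowered, the lowest without siKDM4A replicate 3. Over all 21253 genes tested, 7.8% were lowered and 4.23% raised. The median log2 fold change was -0.79 over the members and -0.05 over all genes, and 48 of the 54 members were below 0. Of the 17, 5 had a mean of at least 50 reads, 7 had 10 to 50, and 5 (HIST1H4K, HIST1H3C, HIST1H3A, HIST1H1D and HIST1H2BL) had fewer than 10. Voom lowered 14 of the 17, without HIST2H2BC, HIST2H2BD and HIST1H3C. The calls lost most often over the alternatives were those of HIST2H2BC (11 of 17), HIST1H4H (10 of 17), HIST1H4K (8 of 16), HIST1H2BL (7 of 14) and HIST1H2BH (7 of 17). This comparison uses the same Control libraries as the one with siLEF1.

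The 5 best covered were HIST1H1C, HIST2H2BE, HIST1H2BC, HIST1H3G and HIST1H4H. HIST1H1C measured 23.9, 22.1 and 21.8 FPKM in siKDM4A against 44.2, 44.8 and 42.9 in Control, and the groups were far apart. Its log2 fold change was -0.96 ± 0.04 (SE, limma adjusted p = 1.78e-05). HIST2H2BE measured 5.36, 5.92 and 5.40 FPKM against 9.72, 10.5 and 9.76, a log2 fold change of -0.83 ± 0.06 (SE, limma adjusted p = 9.60e-05).

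HIST1H2BC fell to 4.97, 3.45 and 4.55 FPKM, a log2 fold change of -0.78 ± 0.14 (SE). HIST1H3G fell to 2.02, 1.70 and 2.52 FPKM from 4.16, 3.77 and 3.29, a log2 fold change of -0.83 ± 0.16 (SE). HIST1H4H had a log2 fold change of -0.63 and a limma adjusted p of 0.0381, but its call was lost in 10 of 17 alternatives, 5 of them among the 6 that left out 1 library (limma adjusted p up to 0.107 over all alternatives). All siKDM4A libraries of these 3 genes were below all Control libraries.

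HIST2H2BF, an H2B gene at chr1:149782689-149812373, had the largest fall among members with a mean of at least 10 reads. Its FPKM was 1.05, 0.947 and 1.11 in Control and 0.210, 0.153 and 0.201 in siKDM4A, from 47 to 54 and 8 to 11 reads. The log2 fold change was -1.98 ± 0.21 (SE, limma adjusted p = 0.000582). Its exons share 177 bases with FCGR1A on the other strand, which averaged 0.0621 FPKM, and whether counting used strand was not stated.

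The further lowered members named as H2B were HIST1H2BG, HIST1H2BH, HIST1H2BE, HIST2H2BC, HIST2H2BD and HIST1H2BL. HIST2H2BD is an annotated pseudogene, and its exons share 1989 bases with AC239868.2 on the other strand, which averaged 2.81 FPKM. This overlap was taken on its full exons, and how much of the shorter length used for its reads is shared was not determined. HIST1H2BL was listed at 0 in all siKDM4A libraries, but Control held only 2, 5 and 1 reads, so no fold is given. HIST1H2BL passed the filter on low values through Control alone. Its call is therefore no evidence of a fall, although it is included wherever genes lowered in siKDM4A are counted, by voom and by HIST1 block too. HIST1H3A had 4, 7 and 8 reads in Control and 1, 0 and 2 in siKDM4A. HIST2H4A fell by 1.01 on the log2 scale, and its reads cannot be separated with certainty from those of its near-identical copy HIST2H4B. No H2A gene passed, although 10 of 11 tested were below 0.

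Several abundant genes stayed within the 1.5-fold limit. HIST1H2BK measured 107.0, 102.6 and 110.5 FPKM in siKDM4A, all below Control, with a log2 fold change of -0.19 ± 0.03 (SE, limma adjusted p = 0.00484). HIST1H2AC had a log2 fold change of -0.45 ± 0.08 (SE, limma adjusted p = 0.00486). HIST3H2A, at 6.06, 7.46 and 6.13 FPKM against 9.90, 9.14 and 10.4, had -0.58 ± 0.09 (SE), just inside the limit.

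HIST1H2BJ rose in siKDM4A, to 11.4, 9.29 and 9.53 FPKM, all above Control, with a log2 fold change of 0.68 ± 0.11 (SE, limma adjusted p = 0.00365). It was thus raised in both knockdowns. HIST1H2BD, at 11.1, 9.07 and 9.39 FPKM, overlapped Control (limma adjusted p = 0.335).

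**Figure D3:**
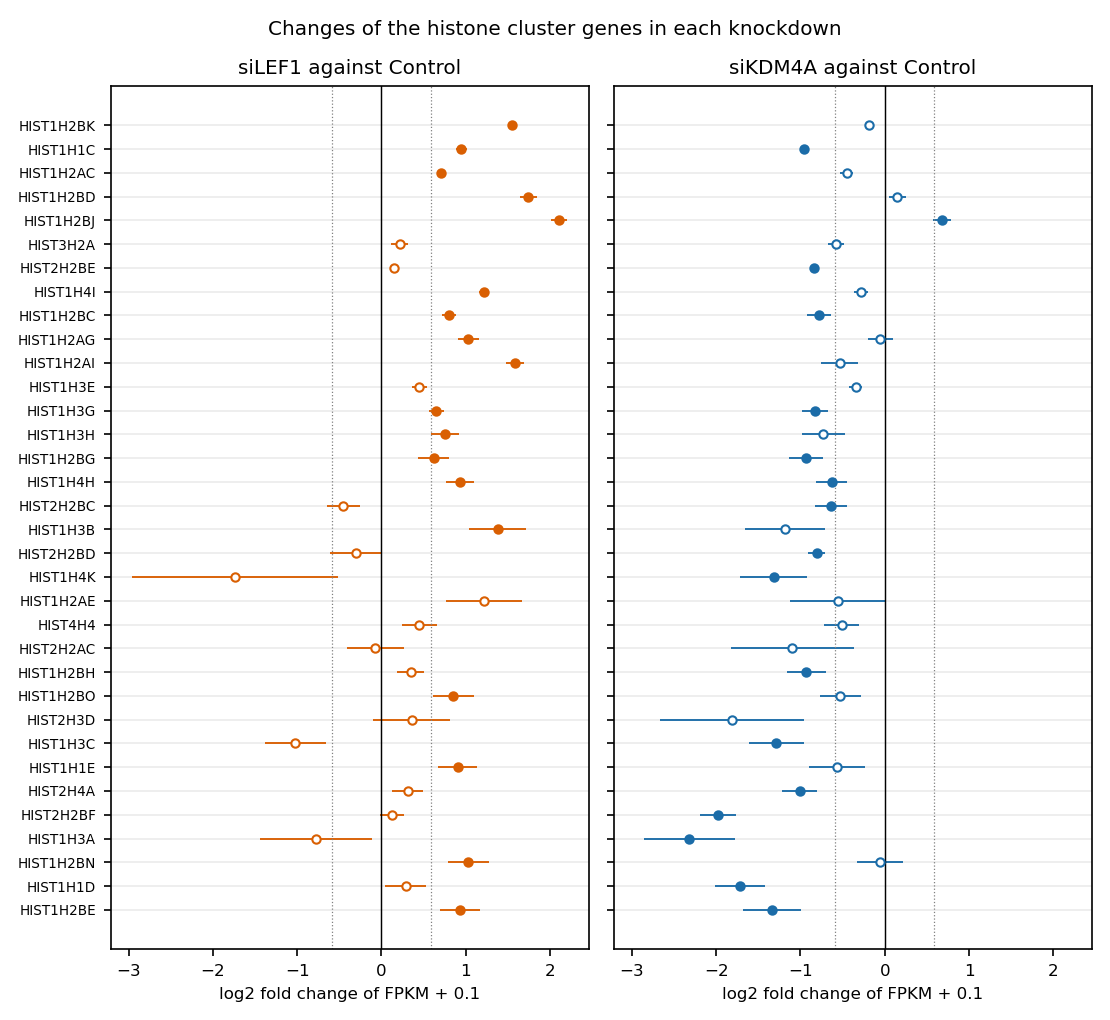
Points give the log2 fold change of FPKM + 0.1 in siLEF1 (left) and siKDM4A (right) against the same Control libraries, bars the SE, filled points those past the test and dotted lines the 1.5-fold limit. Members with at most 3 reads on average in both groups of a panel are left out. HIST1H1C lies at 0.95 on the left and -0.96 on the right, HIST1H2BJ at 2.11 and 0.68.

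Set directly against siLEF1, siKDM4A had 30 histone genes lower and 0 higher among 50 tested. Over all 21493 genes tested, 10% were lowered and 5.28% raised. For the raised direction, limma gave 0 members at an unadjusted p below 0.05, and voom raised 0. The median log2 fold change was -1.35 over the members and -0.06 over all genes. Of the 30, 17 had a mean of at least 50 reads, 9 had 10 to 50 and 4 fewer than 10, and voom lowered 29.

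HIST1H2BK stood in siKDM4A at 0.299 times its siLEF1 level of FPKM + 0.1, a log2 fold change of -1.74 ± 0.03 (SE, limma adjusted p = 9.84e-07). HIST1H1C had -1.90 ± 0.07 (SE) and HIST1H2AI -2.12 ± 0.21 (SE). HIST1H2BJ, raised in both knockdowns against Control, was lower in siKDM4A than in siLEF1 by a log2 fold change of -1.43 ± 0.09 (SE). HIST1H3E and HIST3H2A, which passed in neither comparison with Control, had -0.79 ± 0.10 and -0.80 ± 0.12 (SE) here.

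By pattern, 6 genes were raised in siLEF1 and lowered in siKDM4A against the shared Control: HIST1H1C, HIST1H2BC, HIST1H3G, HIST1H2BG, HIST1H4H and HIST1H2BE. For the last 3 one side was lost in most alternatives, HIST1H2BG in siLEF1 (10 of 17), HIST1H4H in siKDM4A (10 of 17) and HIST1H2BE in siLEF1 (9 of 16, and 6 of 16 in siKDM4A). HIST1H1C, HIST1H2BC and HIST1H3G lost a side in at most 3 of 17. A further 11 were raised in siLEF1 and passed neither way in siKDM4A against Control, among them HIST1H2BK, HIST1H2AC, HIST1H2BD, HIST1H4I and HIST1H2AG. Another 11 were lowered in siKDM4A only by the test against Control, HIST2H2BE, HIST2H2BF and HIST2H4A among them. The share of all genes with each pattern was not counted, so these counts do not set the members apart from other genes. A test passed in one comparison and missed in the other does not show a difference between them; the direct comparison above gives it.

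HIST1 falls into 3 blocks parted by gaps of over 100000 bases. The first, chr6:26017085-26285638, holds 29 members, the second, chr6:27125897-27147515, 5, and the third, chr6:27807444-27893843, 14. In siLEF1, 11 of 25 tested members of the first block, 4 of 5 of the second and 4 of 12 of the third were raised. In siKDM4A, 10 of 23, 0 of 5 and 2 of 12 were lowered. The second block holds HIST1H2BJ, HIST1H2AG, HIST1H4I, HIST1H2BK and HIST1H2AH, and its summed mean was 138.8 FPKM in Control, 407.5 in siLEF1 and 126.1 in siKDM4A. Of 28 other genes tested between the ends of HIST1, 3 were raised and 1 lowered in siLEF1. Of 25 tested in siKDM4A, 1 was raised and 3 lowered.

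**Figure D4:**
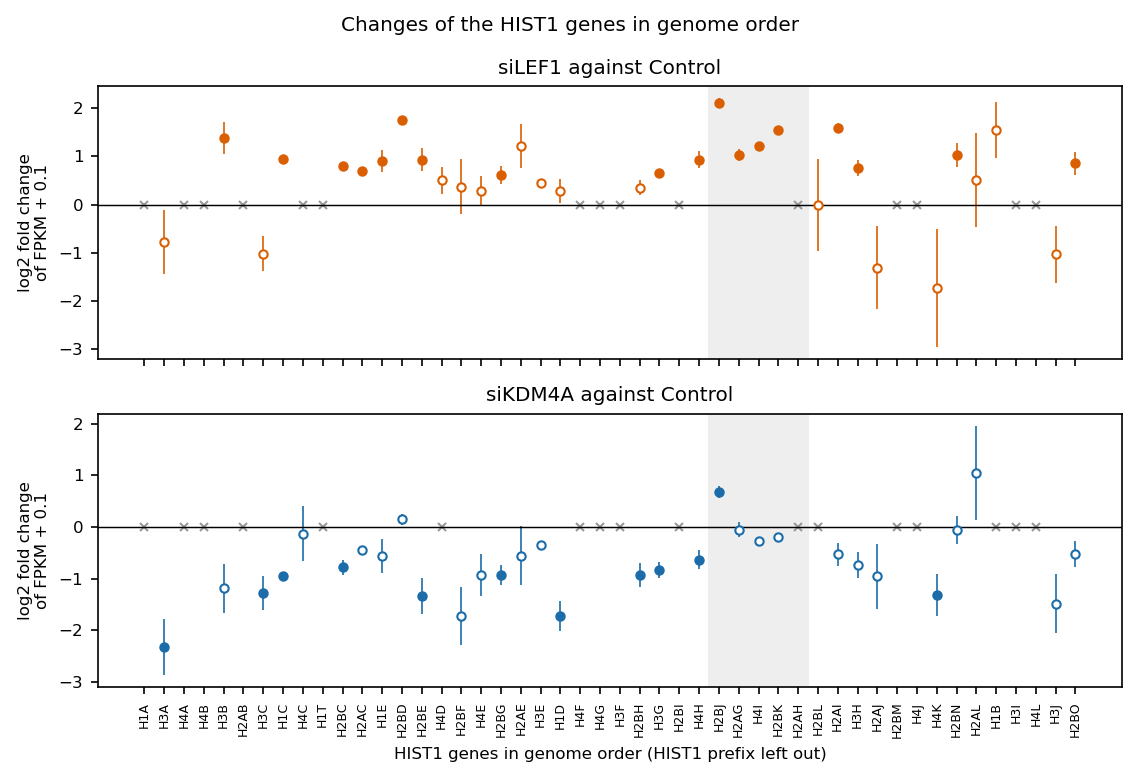
The HIST1 genes are set in genome order, with the log2 fold change of FPKM + 0.1 and its SE for siLEF1 (top) and siKDM4A (bottom) against Control. Filled points passed the test, crosses at 0 mark genes not tested or with at most 3 reads on average in both groups, and grey marks the second block, where 4 of 5 genes were raised in siLEF1.

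Pairs of genes that start within 1000 bases of each other on opposite strands were found 10 times. The partners of some pairs differed widely in level and those of others, such as HIST1H2BJ and HIST1H2AG with 6.26 and 4.11 FPKM in Control, did less so. HIST1H2BK starts 331 bases from HIST1H2AH, which measured 0.498, 0.666 and 0.169 FPKM in Control and 0.326, 0.324 and 0.303 in siLEF1, on models of 381 and 387 bases that both hold the coding part only. HIST1H2AH had at most 4 reads in any library. In the pair of HIST1H2BC and HIST1H2AC both genes were raised in siLEF1, as were HIST1H2BJ and HIST1H2AG.

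The genes around the histone pathway were counted from lists. Of 12 histone genes outside the clusters, 11 were tested in siLEF1 and 1 was raised, H2AFJ, from 7.81 ± 0.145 FPKM (SD, n = 3) to 16.6 ± 1.10. In siKDM4A, 2 of 12 were lowered, the linker histone genes H1F0, from 72.3 ± 1.98 to 29.4 ± 0.552 FPKM, and H1FX, from 14.4 ± 0.711 to 8.65 ± 1.44. H3F3B, an H3.3 gene and the most abundant of the list, passed in neither, at 137, 111 and 106 FPKM in the 3 groups.

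Of 14 genes for the processing and decay of histone transcripts, 1 was lowered in siLEF1, LSM10 of the U7 particle, from 16.6 ± 0.498 to 11 ± 1.12 FPKM (SD, n = 3). In siKDM4A 0 passed. SLBP measured 28.6, 27.1 and 34.8 FPKM on average in Control, siLEF1 and siKDM4A. None of 13 cleavage and polyadenylation genes and none of 15 histone chaperone genes passed in any comparison by limma.

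Of 30 genes of DNA replication and S phase, CCNA2 was raised and CCNE1 and UHRF1 were lowered in siLEF1, with a list median of -0.05 on the log2 scale. In siKDM4A GINS1, GINS2 and CDC25A were raised and 0 lowered, with a median of 0.23, and 26 of 30 were above 0. Control libraries summed to 857.6 to 860.7 FPKM over this list, siLEF1 libraries to 821.1 to 839.1 FPKM and siKDM4A libraries to 1006 to 1027 FPKM. The histone sum and this sum thus stood in opposite order in each knockdown. The part of the cell cycle in the histone values was not tested.

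Transcripts that normally carry no poly(A) tail, such as RN7SL2, were listed as a rough guide to untailed RNA in the libraries. They do not measure untailed histone transcripts. Of 27 listed, 14 were in the files, and their sum lay between 139.2 and 208.7 FPKM in Control libraries, between 140.5 and 156.4 FPKM with siLEF1 and between 129.1 and 191.3 FPKM with siKDM4A. These ranges overlapped. Of 9 tested in siLEF1 0 passed by limma, and of 10 in siKDM4A SNORD17 and SNORA73B were raised.

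The 14 markers of oral squamous epithelium were all present, with sums of 1839 to 1885 FPKM in Control and 1843 to 1865 in siLEF1, and 972.3 to 995.3 in siKDM4A, where 10 were lowered and EPCAM was raised. In siLEF1 2 were raised and 2 lowered. Fibroblast markers summed to 3.54 to 4.04, 5.30 to 6.29 and 3.28 to 3.74 FPKM in Control, siLEF1 and siKDM4A. Leukocyte markers summed to 2.57 to 4.04, 2.43 to 2.75 and 1.62 to 2.11 FPKM, and endothelial markers to 0.694 to 1.27, 2.0 to 2.42 and 2.46 to 2.87 FPKM. Their part in the histone values was not tested.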

How the data were processed

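RNA from CAL-27 cells was selected with oligo(dT) beads and made into stranded mRNA libraries. For every library the authors deposited the FPKM of 33216 genes. The submitters' processing notes name Trimmomatic, HISAT2, Cufflinks and HTSeq with hg38, and versions are not given in the sources used here. Reads were recovered from the FPKM steps. Of 18048 genes with an identifier and above 0 in all libraries, 94.0% gave whole reads within 0.05 at their GENCODE exon length. For the other genes the shortest length giving whole reads was searched. With these lengths 99.999% of values above 0 were whole reads, which follows in part from the search and does not check it. GENCODE 29 identifiers matched for 33074 genes.

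Values were tested as log2(FPKM + 0.1) for genes averaging 0.1 FPKM or more over the 6 libraries compared, with limma 3.58.1 in R 4.3.3 (trended moderation, Benjamini-Hochberg adjustment over all genes tested). Fold changes on this scale understate changes of low genes. Members, lists and tests were chosen with earlier results of these data known. Genes named were members averaging 1 FPKM or more over 9 libraries or passing any of the 3 comparisons, the targeted genes, and from the lists those that passed plus at most 4 others with values. The blocks of HIST1, the gene model groups and the filter of 10 reads were set after values were seen. The procedure was tested on simulated counts with 200 of 21153 genes changed. It recovered most changes above 50 reads and few below, where most calls were false. The bound set for that test was lowered after its first results. Libraries with the same number did not deviate together (correlations -0.04 to 0.04), so no pairing was used. Python 3.11.15 and matplotlib 3.10.9 drew the figures.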

Additional observations from a re-analysis of the deposited data

How the results depend on the processing

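The counts of histone genes moved most with a stricter fold limit and a larger pseudocount. With a pseudocount of 1 FPKM, 12 histone genes were raised in siLEF1 and 9 lowered in siKDM4A, of 1405 and 1462 genes called, and 1841 genes were called between the knockdowns. With a fold limit of 2, 9 were raised in siLEF1, and 8 were lowered and 0 raised in siKDM4A, of 1070 and 1079 genes called, with 1493 between the knockdowns. The smaller counts under these settings follow from their construction. Limma voom on recovered reads lowered 1 histone gene in siLEF1. Leaving out 1 library at a time gave 12 to 16 raised and 0 to 1 lowered in siLEF1, the lowest of 12 without siLEF1 replicate 3 and the 1 lowered without Control replicate 2. It gave 11 to 15 lowered and 1 raised in siKDM4A, with 11 without siKDM4A replicate 3, and 26 to 32 lowered between the knockdowns. A filter of 10 reads, chosen after seeing the data, gave 18 raised in siLEF1 and 13 lowered in siKDM4A. The cause of the other shifts was not tested. With the replicate number as a block, 16 were raised in siLEF1 and 14 lowered in siKDM4A, although the numbers did not pair the libraries. Over the named genes and alternatives, 1672 values kept their side of the threshold, 152 lost it, 30 gained it and 0 called values changed direction. Depth limits the 28 members with at most 10 reads in each library.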
